A study of Mus musculus with 9 samples.

Results

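The 9 genes described here were chosen by symbol as factors that make red cells and genes that clear the contents of reticulocytes. They are Gata1, Klf1, Tal1, Nfe2 and Lmo2, which act in the nucleus of red cell precursors, and Bnip3l, Ulk1, Trim58 and Bpgm, which act late in red cell maturation. All 9 were found among the 20926 genes of the expression table, and all 9 passed the minimum level for testing. Their levels were compared in blood RNA of male DBA/1 mice, 7 weeks old at the start, with 3 libraries in each of 3 groups. The Ctrl mice had no induced arthritis and no irradiation. In the CIA mice, arthritis resembling rheumatoid arthritis was raised by injecting chick type II collagen in complete and later in incomplete Freund's adjuvant, and these mice were not irradiated. CIA+THz mice were treated alike and also received 0.1 THz radiation on the swollen ankles for 30 min per day over 14 days, under isoflurane anesthesia. Whether the other groups were anesthetised is not given in the sources used here, so that radiation and anesthesia cannot be told apart in any difference from CIA+THz.

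A red cell precursor is built by a small set of DNA-binding proteins. Gata1 and Tal1 bind DNA and are joined by the bridging protein Lmo2, Klf1 switches on the genes of the red cell membrane and of heme synthesis, and Nfe2 is a subunit of the factor NF-E2. Gata1, Tal1, Lmo2 and Nfe2 also act in megakaryocytes, the cells that shed platelets, and Gata1 also acts in basophils, eosinophils and mast cells. After the nucleus is lost the cell is a reticulocyte, which enters the blood with leftover mRNA and mitochondria. Bnip3l, also called Nix, is a receptor on mitochondria that sends them to autophagy, Ulk1 is the kinase that starts autophagy, Trim58 is a ubiquitin ligase that acts on the motor protein dynein during loss of the nucleus, and Bpgm makes bisphosphoglycerate, which lowers the oxygen affinity of hemoglobin. Reticulocytes hold far more RNA than mature red cells.

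The main differences were seen in Klf1 and Trim58. Klf1 was 2.72-fold lower in CIA than in Ctrl, Trim58 was 1.70-fold lower, and neither was higher again in CIA+THz by the criterion used. That criterion takes an unadjusted limma p under 0.05 with a log2 fold change beyond 0.67 in either direction. These 2 of 9 genes stand beside 9.04% of all genes tested, and their limma adjusted p was 0.120 and 0.212. The Trim58 call held in 12 of 15 refits. The other 7 genes did not pass the criterion between CIA and Ctrl, and none of the 9 passed it between CIA+THz and CIA. Of all genes tested, 4.54% passed it between CIA+THz and CIA. Over the 9 libraries, the levels of Gata1 and Nfe2 were closest to those of platelet genes. Lmo2, Bnip3l and Bpgm were close to red cell membrane genes and also to genes of late reticulocyte maturation. The likeness of Lmo2, Bnip3l and Bpgm to platelet genes rose once Ctrl 2 and CIA 2 were left out. How far the membrane and platelet lists differ for them thus depends on the libraries used.

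The RefSeq promoters of Klf1, Trim58, Bpgm and Gata1 are shown because the results turn on these genes, which stand for the different patterns just named. The RefSeq table on GRCm38.p6 held promoters for 6 of the 9 genes, namely Gata1, Klf1, Tal1, Ulk1, Trim58 and Bpgm, as windows from 250 bases before to 50 bases after a start of transcription. Each runs 5′ to 3′ on the gene's own strand. Capitals mark words of the kind bound by the factors described here, searched on both strands. For Gata1 the word was AGATAA, also with T as the first letter, G as the last, or both. For Klf1 it was CCACACCC, CCACGCCC, CCCCACCC or CCCCGCCC. For Nfe2 it was TGAGTCA, also with C as the fourth letter, and for Tal1 it was the E-box CAGATG, also with C as the fourth letter. No 2 of the marked words overlap in these windows.
Klf1 promoter, chr8:84901732-84902031, plus strand: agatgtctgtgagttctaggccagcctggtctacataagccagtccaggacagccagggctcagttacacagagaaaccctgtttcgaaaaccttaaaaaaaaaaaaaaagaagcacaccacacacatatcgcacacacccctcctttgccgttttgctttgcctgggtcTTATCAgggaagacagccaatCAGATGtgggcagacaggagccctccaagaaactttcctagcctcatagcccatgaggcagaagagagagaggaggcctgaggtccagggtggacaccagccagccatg
Trim58 promoter, chr11:58640215-58640514, plus strand: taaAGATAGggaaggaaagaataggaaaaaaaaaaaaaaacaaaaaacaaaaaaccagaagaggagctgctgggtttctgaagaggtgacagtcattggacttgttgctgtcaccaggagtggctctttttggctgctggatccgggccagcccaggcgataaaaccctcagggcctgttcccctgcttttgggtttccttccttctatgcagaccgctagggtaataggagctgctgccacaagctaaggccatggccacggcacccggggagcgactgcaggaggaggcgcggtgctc
Bpgm promoter, chr6:34476106-34476405, plus strand: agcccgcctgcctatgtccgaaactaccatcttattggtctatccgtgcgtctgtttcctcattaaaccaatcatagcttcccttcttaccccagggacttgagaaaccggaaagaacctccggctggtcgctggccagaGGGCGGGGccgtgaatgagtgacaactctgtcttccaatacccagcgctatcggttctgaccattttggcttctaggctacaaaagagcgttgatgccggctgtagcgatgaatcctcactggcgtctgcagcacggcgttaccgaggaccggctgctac
Gata1 promoter, chrX:7967861-7968160, minus strand: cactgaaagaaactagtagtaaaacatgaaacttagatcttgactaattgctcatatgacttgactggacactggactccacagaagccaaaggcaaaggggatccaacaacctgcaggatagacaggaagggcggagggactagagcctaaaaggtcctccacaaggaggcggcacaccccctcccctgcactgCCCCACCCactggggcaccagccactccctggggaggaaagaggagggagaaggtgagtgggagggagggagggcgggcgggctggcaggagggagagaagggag
The Klf1 window held a GATA word on the opposite strand, starting 80 bases before the start of transcription, and an E-box word starting 59 bases before it. The Trim58 window held 1 GATA word, 247 bases before the start. Of all 32851 promoters in the table, 29.8% held such a GATA word and 30.6% such an E-box word, so that these matches are common. The Bpgm and Gata1 windows each held 1 word of the Klf1 type, as 29.7% of all promoters did, and the window of Ulk1 held 3. The Nfe2 word was in 5.2% of all promoters and in none of the windows of these 6 genes. Such matches describe the letters and do not show binding.

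The genes lie on 9 different chromosomes, and all are protein-coding in GENCODE on GRCm38, the build named in the submitters' notes as mm10. Klf1, a gene of 3 exons, spans chromosome 8 from 84901928 to 84905291 on the plus strand, and its only annotated transcript has 1530 bases. Trim58 spans chromosome 11 from 58640465 to 58652404 on the plus strand, with 6 exons and a single transcript of 2192 bases. Gata1 lies on chromosome X from 7959260 to 7978071 on the minus strand, and Bpgm on chromosome 6 from 34476207 to 34505613 on the plus strand. Bnip3l lies on chromosome 14 from 66985239 to 67008877 on the minus strand.

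Levels are given as rescaled FPKM. FPKM counts fragments per kilobase of transcript and relative to all mapped fragments, and the values of a library were divided by 1 factor that brings its typical gene to the same level as in the other libraries. The factors lay between 0.847 and 1.24. The absolute depth of the libraries cannot be read from these values, but the spacing of the lowest values showed that the deepest library, CIA+THz 1, held 1.87 times the fragments of the shallowest, Ctrl 1, with the other 2 CIA+THz libraries at 1.35 and 1.40 times. The samples are labelled as blood leukocytes, and Ptprc, which all leukocytes carry, lay between 66.8 and 150 rescaled FPKM. Alas2, the first enzyme of heme synthesis in red cell precursors, was nevertheless the gene with the highest mean, at 11.4% to 16.7% of the summed FPKM of a library, so that red cell RNA made up a large part of what was sequenced. In such bulk samples, fewer cells of a type and less RNA per cell cannot be told apart.

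The 9 genes covered a wide range of levels. Bpgm had the third highest mean of the 12366 genes tested, at 11352 rescaled FPKM over the 9 libraries, and Bnip3l the ninth highest, at 3892. Nfe2 followed at 129 and Lmo2 at 102, of which Nfe2 was higher than 96.1% of the genes tested. Tal1 averaged 42.6, Ulk1 30.0 and Gata1 15.3. Trim58 at 3.52 and Klf1 at 1.12 were low, and only 22.6% of the genes tested lay below Klf1. Of neighbours in this order, Bpgm exceeded Bnip3l, Tal1 exceeded Ulk1, Ulk1 exceeded Gata1 and Trim58 exceeded Klf1 in each of the 9 libraries. The ranges over all libraries did not overlap for Bpgm and Bnip3l or for Ulk1 and Gata1. They overlapped for Nfe2 and Lmo2, for Tal1 and Ulk1, and for Trim58 and Klf1. Taking FPKM as deposited and the length of its transcript, Klf1 rested on 0.852 to 3.32 fragments per 1000000 mapped and Trim58 on 4.59 to 12.4, against at least 8500 for Bnip3l, so counting error weighs most on Klf1.

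**Figure D1:**
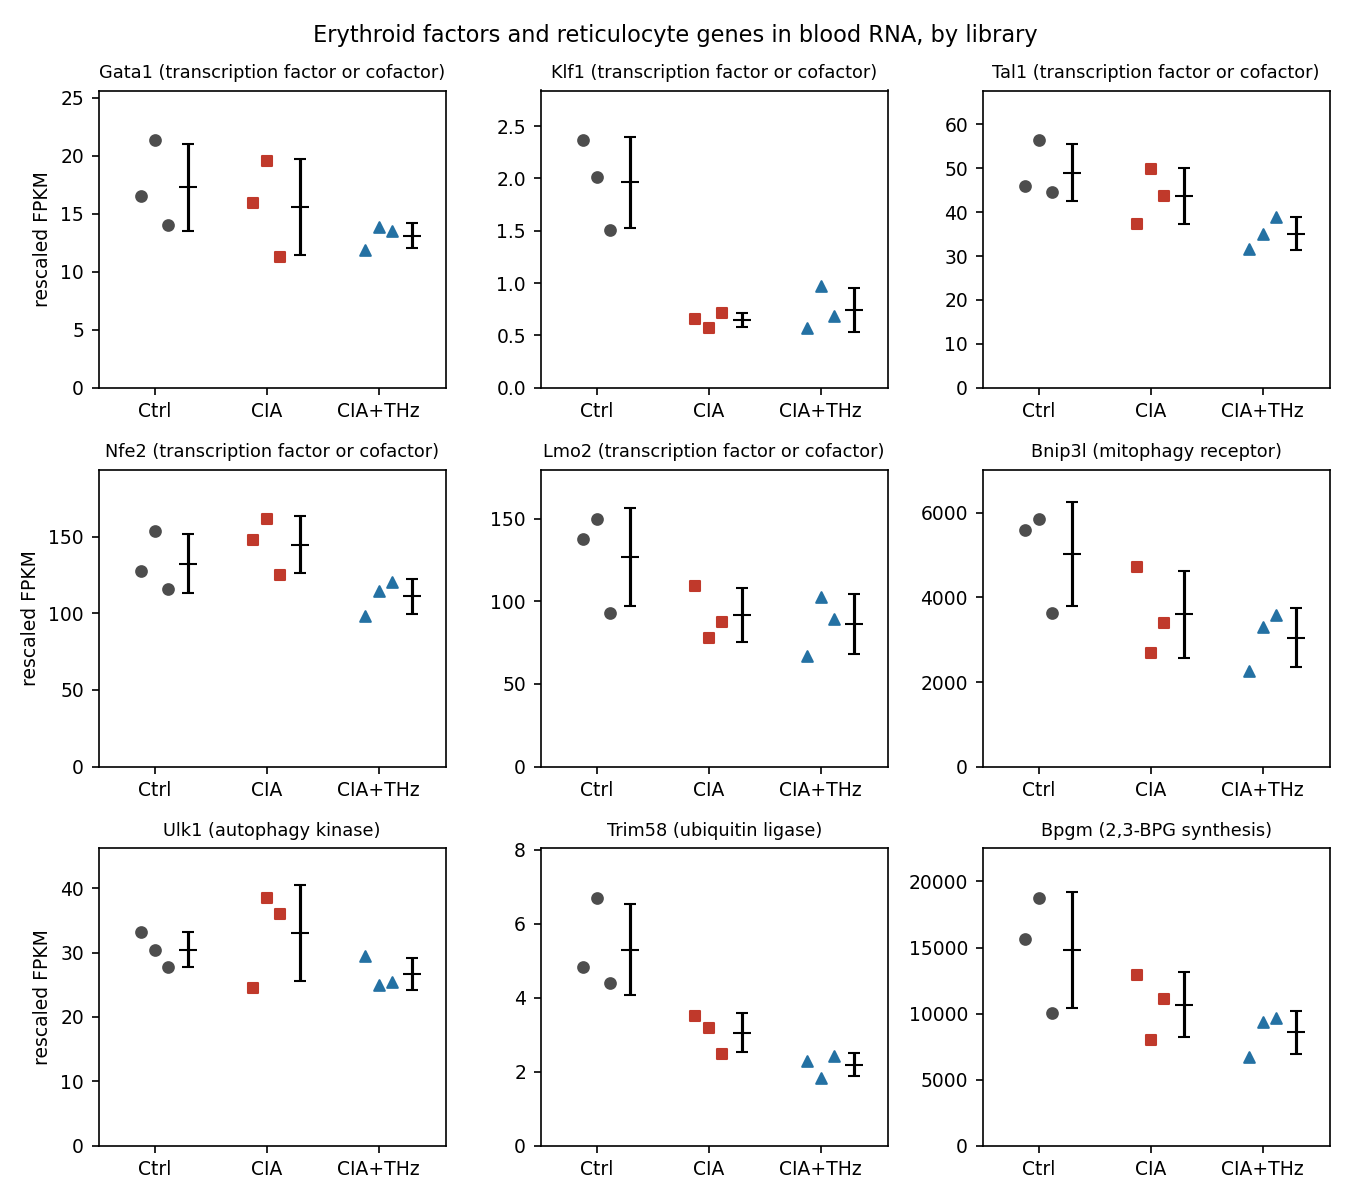
Rescaled FPKM of the 9 genes in each of the 9 libraries, with 1 panel per gene, each with its own axis from 0; points are libraries, and the bar beside them is the mean ± SD of 3. Klf1 and Trim58 were lower in all CIA and CIA+THz libraries than in all Ctrl libraries, and the groups overlapped between CIA and Ctrl for the other 7 genes.

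Klf1 was the gene that differed most. Its rescaled FPKM was 2.37, 2.01 and 1.50 in the Ctrl libraries, 0.654, 0.574 and 0.714 in the CIA libraries, and 0.570, 0.976 and 0.680 in the CIA+THz libraries. Every Ctrl library thus lay above every library of mice with arthritis, and the CIA and CIA+THz libraries overlapped. Ctrl averaged 1.96 ± 0.433, CIA 0.648 ± 0.0702 and CIA+THz 0.742 ± 0.210 (SD, n = 3 each). In limma, fitted over all genes on log2(rescaled FPKM + 0.1), the log2 fold change of CIA against Ctrl was -1.45 (SE 0.35, Benjamini-Hochberg adjusted p = 0.120). Against the same Ctrl libraries, CIA+THz differed by -1.30 (SE 0.34, limma adjusted p = 0.140). Between CIA+THz and CIA the difference was 0.15, with a 95% interval from -0.65 to 0.95, so that a sizeable rise or fall would have been missed. With a pseudocount of 1 in place of 0.1 the first 2 values shrank to -0.84 and -0.76 and still passed the criterion.

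Trim58 was the other gene lower in CIA. Its rescaled FPKM was 4.82, 6.70 and 4.39 in Ctrl, 3.50, 3.19 and 2.48 in CIA, and 2.30, 1.83 and 2.43 in CIA+THz. The 3 groups did not overlap, with Ctrl highest and CIA+THz lowest. CIA against Ctrl gave a log2 fold change of -0.77 (SE 0.26, limma adjusted p = 0.212). This call was lost without Ctrl 2 (-0.59), without CIA 3 (-0.63) and with a pseudocount of 1 (-0.63). CIA+THz against Ctrl gave -1.23 (SE 0.25, limma adjusted p = 0.0992), and this call held under each of the 15 other settings in which it was refitted. Between CIA+THz and CIA the difference was -0.46 (SE 0.24, limma adjusted p = 0.455), which did not pass although the libraries did not overlap.

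The criterion takes its cut-offs from the study, a p under 0.05 together with a log2 fold change beyond 0.67 in either direction. The p used here is the unadjusted limma p, and the study's text does not say whether its own was adjusted. In CIA against Ctrl, 2 of the 9 genes met the criterion, both lower. Of all genes tested, 9.04% met it in either direction and 4.25% were lower. Across the 3 groups, limma's F-test gave an unadjusted p under 0.05 for Klf1, Trim58 and Tal1, with limma adjusted p of 0.0835, 0.0599 and 0.169, which is 3 of 9 beside 21.3% of all genes tested. Leaving out 1 library moved this count to between 2 and 7, with 7 without Ctrl 3 and 6 without CIA 1. Over these refits the count of all genes lay between 2072 and 2798, against 2629 with all libraries. No gene of the 9 had an adjusted p under 0.05 in any of these limma comparisons, which 0.154% of all genes had in CIA against Ctrl, 0% for CIA+THz against CIA, 0.105% for CIA+THz against Ctrl and 2.53% across the 3 groups. At an unadjusted limma p under 0.05, without the fold limit, there were 2 of the 9 in CIA against Ctrl beside 17.3% of all genes, 1 in CIA+THz against CIA beside 13.2%, and 5 in CIA+THz against Ctrl beside 18.1%. The libraries lay wholly below for 2 of the 9 in CIA against Ctrl beside 11.8% of all genes, for 2 in CIA+THz against CIA (Nfe2 and Trim58) beside 10.2%, and for 6 in CIA+THz against Ctrl (Gata1, Klf1, Tal1, Bnip3l, Trim58 and Bpgm) beside 12%. Nothing is read from the last count about the 9 genes as a set.

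**Figure D2:**
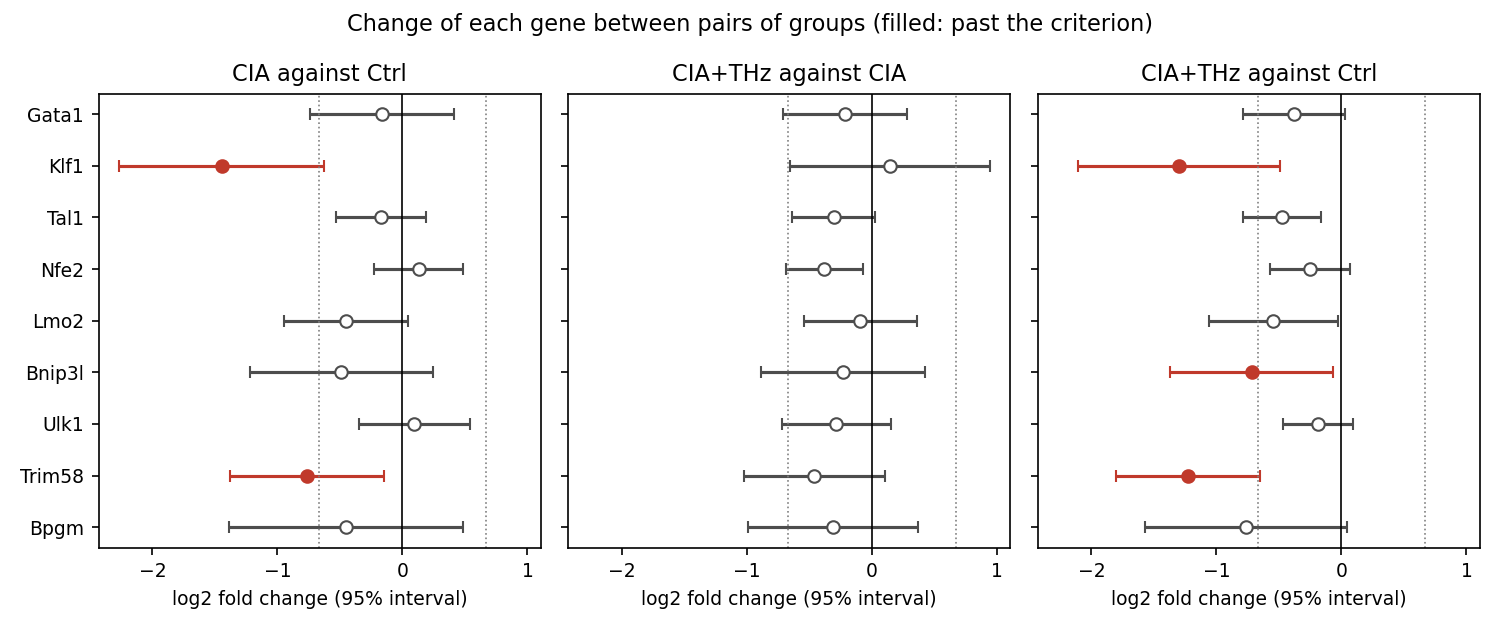
Log2 fold change of each gene between pairs of groups, with its 95% interval from limma; filled red points passed the criterion, and dotted lines mark the fold limit of 0.67. Klf1 and Trim58 are filled in both comparisons with Ctrl, Bnip3l only in CIA+THz against Ctrl, and none in CIA+THz against CIA.

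Gata1, the central factor of the red cell line, did not separate the groups. Its rescaled FPKM was 16.5, 21.3 and 14.0 in Ctrl, 15.9, 19.6 and 11.2 in CIA, and 11.9, 13.9 and 13.5 in CIA+THz. The CIA libraries overlapped both other groups, whereas the CIA+THz libraries all lay below the lowest Ctrl library by a narrow margin. The log2 fold changes were -0.16 (95% interval from -0.74 to 0.42) for CIA against Ctrl and -0.38 (from -0.79 to 0.03) for CIA+THz against Ctrl.

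Tal1, the partner of Gata1, was 46.0, 56.4 and 44.6 in Ctrl, 37.2, 49.9 and 43.7 in CIA, and 31.5, 34.9 and 38.9 in CIA+THz. The Ctrl and CIA+THz libraries did not overlap. The difference between them was -0.48 (SE 0.13, limma adjusted p = 0.146), which is under the fold limit.

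Nfe2 was 128, 154 and 116 in Ctrl, 148, 161 and 125 in CIA, and 98.2, 114 and 120 in CIA+THz. All CIA+THz libraries were below all CIA libraries, with a log2 fold change of -0.38 (SE 0.13, limma adjusted p = 0.301), again under the fold limit. Nfe2 and Ulk1 were the 2 genes of the 9 with a higher fitted value in CIA than in Ctrl, at 0.13 (95% interval from -0.22 to 0.49) and 0.10 (from -0.35 to 0.54).

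Lmo2, the bridging protein, was 138, 150 and 93.1 in Ctrl, 110, 77.7 and 87.8 in CIA, and 67.2, 103 and 89.2 in CIA+THz. The libraries of the 3 groups overlapped. Its differences from Ctrl were -0.45 (95% interval from -0.95 to 0.04) in CIA and -0.55 (from -1.06 to -0.03) in CIA+THz, and neither passed the fold limit.

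Among the late genes, Bnip3l and Bpgm had the highest levels. Bnip3l was 5607, 5855 and 3623 rescaled FPKM in Ctrl, 4718, 2690 and 3400 in CIA, and 2255, 3305 and 3580 in CIA+THz. The CIA libraries overlapped both other groups, and the lowest Ctrl library was just above the highest CIA+THz library. CIA+THz against Ctrl passed the criterion at -0.72 (SE 0.28, limma adjusted p = 0.241), and so did Klf1 and Trim58, which makes 3 of 9, all lower, beside 7.88% of all genes in either direction and 3.24% lower. The Bnip3l call was lost without Ctrl 1, without Ctrl 2, without CIA+THz 1 or without CIA+THz 2, where it lay between -0.79 and -0.52. On FPKM as deposited the value was -0.41, and it did not pass.

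Bpgm was 15645, 18745 and 10030 in Ctrl, 12951, 8019 and 11068 in CIA, and 6684, 9376 and 9649 in CIA+THz. CIA+THz lay below Ctrl in all libraries, and the difference of -0.76 (SE 0.35, limma adjusted p = 0.303) did not pass. Without Ctrl 3 it was -1.02 and passed, and Lmo2 passed as well, which raised the count in CIA+THz against Ctrl to 5 of 9. The count of all genes rose too in that refit, from 975 to 1500.

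Ulk1 was 33.2, 30.4 and 27.7 in Ctrl, 24.6, 38.5 and 36.0 in CIA, and 29.5, 25.1 and 25.5 in CIA+THz. It spread most in CIA, where its SD was 7.43 against 2.72 in Ctrl. Its differences lay between -0.28 and 0.10 over the 3 comparisons, and none passed.

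In CIA+THz against CIA none of the 9 genes passed in limma, beside 4.54% of all genes tested in either direction and 1.6% lower. Of the 9, 8 had a lower fitted value, with a median log2 fold change of -0.28 against 0.03 over all genes tested. The direction of these small values depended on the scaling. On FPKM as deposited the median of all genes in this comparison moved up to 0.29, and Gata1, Lmo2 and Bnip3l took values of 0.06, 0.18 and 0.05. Relative to the median of all genes, all 3 remained lower in that setting. The libraries of each group enter 2 of the 3 comparisons, so the comparisons are not independent of each other.

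The order of the libraries within each group was then compared between the genes. Ctrl 3 was the lowest Ctrl library for all 9 genes, and CIA+THz 1 was the lowest of its group for 7, with Trim58 and Ulk1 as the exceptions. In CIA, however, CIA 2 was the highest library for Gata1, Tal1, Nfe2 and Ulk1 and the lowest for Klf1, Lmo2, Bnip3l and Bpgm. The mean log2 level of the 5 transcription factors minus that of the 4 late genes lay between -3.53 and -3.11 over the 9 libraries, a mean over genes that moved in opposite directions in CIA 2.

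**Figure D3:**
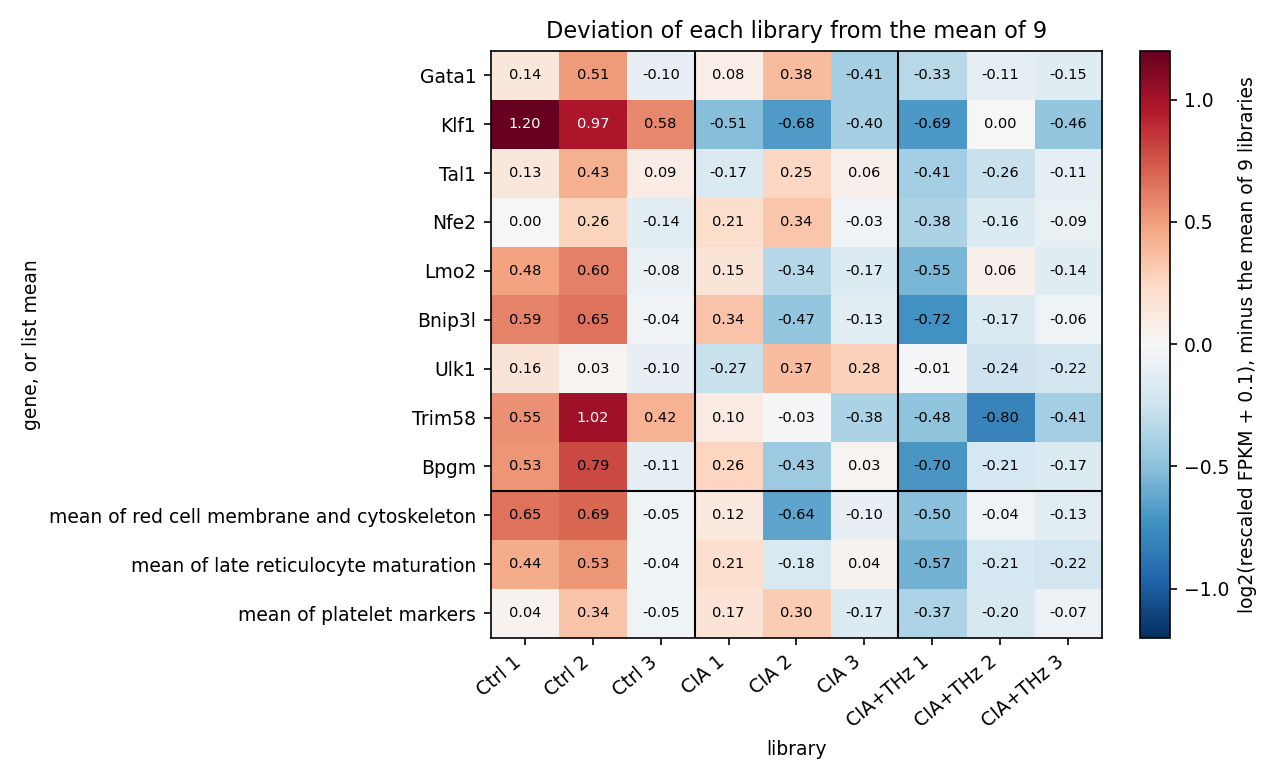
Log2 level of each of the 9 genes in each library minus its mean over 9 libraries, from blue (lower) to red (higher), with the same for the mean of 3 gene lists below the line. In CIA 2, Gata1, Tal1, Nfe2, Ulk1 and the platelet mean were above their mean, whereas Klf1, Lmo2, Bnip3l, Bpgm and the membrane mean were below it.

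These patterns were also seen in other genes. Pearson's r between Nfe2 and the mean of 12 platelet markers, such as Pf4 and Itga2b, was 0.955 over the 9 libraries (Spearman's rho 0.917), and 0.984 when each library was taken as its deviation from its group mean. For Gata1 the values were 0.926 (rho 0.900) and 0.954. Without the 2 libraries farthest from the platelet median, Ctrl 2 and CIA 2, r was 0.916 for Nfe2 and 0.807 for Gata1. With the mean of 16 red cell membrane genes the same 2 factors had r of 0.257 and 0.401. The points share libraries and their scaling factors, and these r are descriptions of 9 libraries.

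Lmo2, Bnip3l and Bpgm were closer to the membrane genes than to the platelet markers over all 9 libraries. Their r with the membrane genes was 0.964, 0.954 and 0.950, and 0.940, 0.951 and 0.975 for deviations from group means, against 0.545 to 0.584 with the platelet markers. Without Ctrl 1 and Ctrl 2, the libraries farthest from the membrane median, r with the membrane genes was 0.885, 0.890 and 0.864. Without Ctrl 2 and CIA 2, however, r of the same genes with the platelet markers rose to 0.774, 0.908 and 0.848. Different libraries were left out for the membrane and the platelet values, so these values do not set the lists side by side. How far the lists differ for these 3 genes depends on the libraries used. For deviations from group means, r with the platelet markers was 0.454, 0.39 and 0.365. With 16 genes of late reticulocyte maturation, r of the same 3 genes was 0.926, 0.953 and 0.978 over all libraries. For deviations from group means it was 0.975, 0.966 and 0.989, so the likeness was not particular to the membrane genes. Bnip3l and Bpgm had r of 0.978 with each other, and Lmo2 had 0.964 with Bnip3l. Tal1 had r of 0.794 with the platelet markers and 0.450 with the membrane genes, and 0.642 and -0.006 for deviations from group means. Without Ctrl 2 and CIA 2 its r with the platelet markers was 0.53, and its r with 38 genes of autophagy and mitophagy was also 0.794 over all libraries. Ulk1 followed neither the platelet nor the membrane genes, with r of 0.250 and -0.15. Its r of 0.664 with the neutrophil markers turned to -0.24 without CIA 2 and CIA 3, and was 0.762 for deviations from group means. With 12 glycolytic genes its r was 0.689, and 0.544 for deviations from group means. For Klf1 the Ctrl libraries formed a cluster of their own, so only r for deviations from group means is given. It was 0.769 with the membrane genes and 0.083 with the platelet markers. With the genes of heme synthesis, of autophagy and of late reticulocyte maturation it was 0.808, 0.785 and 0.768. For Trim58, whose Ctrl libraries also lay apart, this r was 0.752 with the platelet markers. It was 0.356 with the late reticulocyte genes and 0.248 with the membrane genes.

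**Figure D4:**
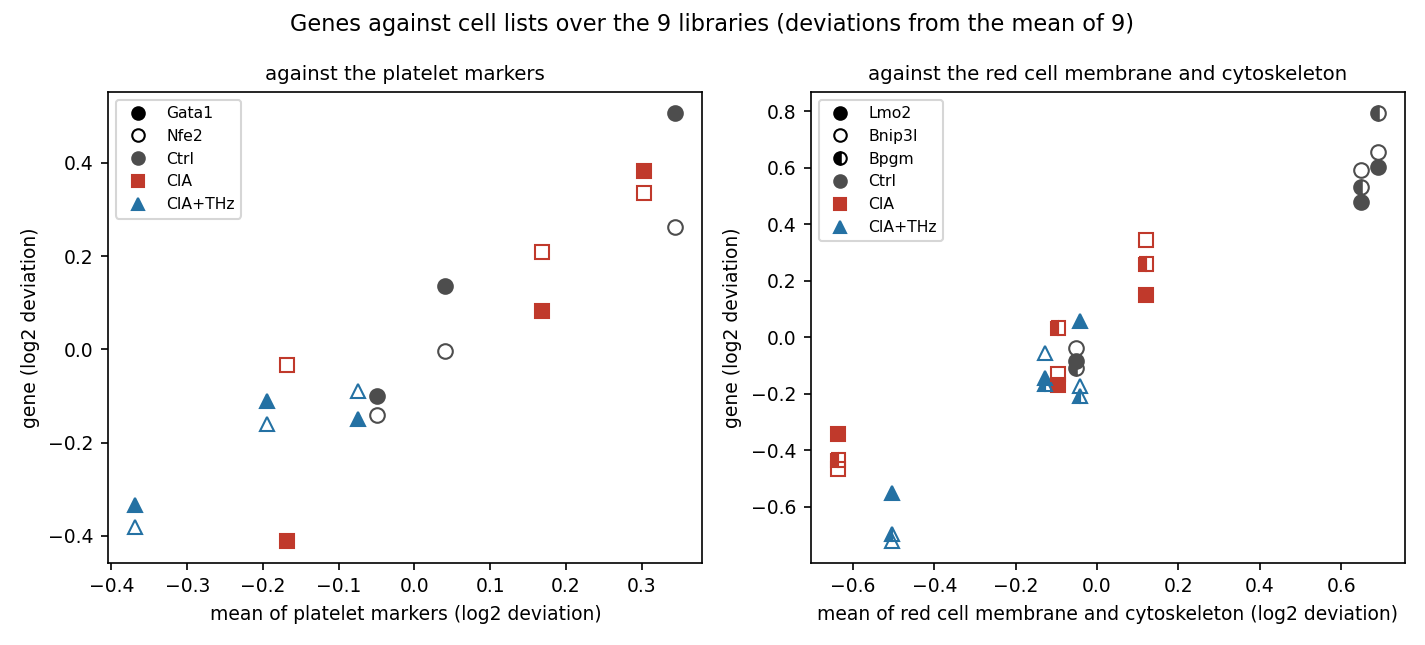
Log2 deviation of a gene from its mean over 9 libraries (vertical) against that of the mean of a marker list (horizontal); shapes and colours give the group and fills give the gene. Gata1 and Nfe2 rise with the 12 platelet markers, and Lmo2, Bnip3l and Bpgm rise with the 16 red cell membrane genes.

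The single genes most like each of the 9 were searched among those with a mean of at least 1 rescaled FPKM. For Gata1 they included Homer3 and Pdlim1, with r of 0.974 and 0.973. For Nfe2 they were Gpx4, Myl6 and Mast2 (0.970 to 0.983), and for Tal1 Ston2, Rbm38 and Gas2l1 (0.948 to 0.966). Bnip3l was most like Ell2, Hagh and Cript (0.986 to 0.995), Bpgm most like Creg1, Iscu and Hagh (0.988 to 0.993), and Lmo2 most like H3f3a, Rnf11 and Urod, an enzyme of heme synthesis (0.981 to 0.987). Klf1 was most like Kdm7a, Zfand4 and Ube2d3 (0.982 to 0.989), Trim58 most like Prokr1, Tmem158 and Hmgb2 (0.964 to 0.965), and Ulk1 most like Lcp1, Siglece and Rab5if (0.944 to 0.973). Each r was the highest of 9747 over only 9 libraries, and high values are found among so many genes. The r of Klf1 also spans the Ctrl libraries, which lay apart from the others.

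Levels within the red cell RNA were then described by subtracting the mean log2 level of the membrane genes of the same library. On this scale Klf1 was -3.74, -4.00 and -3.66 in Ctrl, -4.92, -4.33 and -4.60 in CIA, and -4.47, -4.25 and -4.62 in CIA+THz. It was still lower in all libraries with arthritis than in all Ctrl libraries, with mean differences of -0.81 in CIA and -0.65 in CIA+THz, so Klf1 differed more from Ctrl than the mean of the membrane genes did. With a pseudocount of 1 these differences shrank to -0.28 and -0.16. Trim58 overlapped between all groups on this scale, with differences from Ctrl of -0.13 in CIA and -0.57 in CIA+THz. Bnip3l and Lmo2 differed from Ctrl by at most 0.18 in either group. Bpgm was slightly higher in CIA than in Ctrl, by 0.18, and below CIA in the CIA+THz libraries (-0.29), both without overlap. Nfe2 was higher in CIA than in Ctrl by 0.76 without overlap. Relative to the platelet markers instead, Nfe2 was higher than in Ctrl by 0.14 in CIA and 0.07 in CIA+THz, both without overlap, and Gata1 differed by -0.15 and -0.05 with overlap. Klf1 and Trim58 remained below all Ctrl libraries in both groups on the platelet scale, at -1.44 and -0.97 for Klf1 and -0.76 and -0.90 for Trim58.

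Other genes of the red cell were lower in the same libraries. Of 17 genes of the red cell membrane and cytoskeleton, 5 fell and none rose in CIA against Ctrl, and 8 fell in CIA+THz against Ctrl, with medians of -0.69 and -0.53 beside -0.01 and 0.04 over all genes tested. Ermap, a red cell adhesion protein, fell by 1.16 and Tmod1, which caps actin filaments, fell by 1.03 on the log2 scale in CIA, while Rhag, the Rh-associated glycoprotein, fell by 1.11 in CIA+THz against Ctrl. Slc4a1, the anion exchanger band 3, had a Ctrl mean of 409 ± 138 rescaled FPKM, a CIA mean of 248 ± 83.5 and a CIA+THz mean of 245 ± 42.1 (SD, n = 3 each). Of the 16 genes of late reticulocyte maturation, 13 had a lower fitted value in CIA than in Ctrl, with a median of -0.33, but none passed in limma (2 with an unadjusted p under 0.05). In the same list 2 fell in CIA+THz against CIA, and 9 fell in CIA+THz against Ctrl, where the median was -0.71. Isg20 (-0.83) and Trim10 (-0.82) were among those that changed most there.

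Of 13 genes of heme synthesis and mitochondrial iron, 9 had a lower fitted value in CIA and 10 in CIA+THz than in Ctrl, with medians of -0.12 and -0.20. Of these 13, Tmem14c, a carrier of heme precursors in mitochondria, rose by 0.72 in CIA against Ctrl and Uros, an enzyme of the pathway, rose by 0.86 in CIA+THz against Ctrl, and none fell by the criterion in any comparison. Alas2 had a Ctrl mean of 85630 ± 17112 rescaled FPKM, a CIA mean of 91159 ± 5537 and a CIA+THz mean of 55983 ± 8958 (SD, n = 3 each). All 3 CIA+THz libraries were below all others, but the log2 difference from CIA of -0.71 did not pass (SE 0.48, limma adjusted p = 0.556). Of 19 cofactors and other erythroid regulators, 3 passed in CIA against Ctrl, with Lyl1 higher and Tcf12 and Runx1 (-0.74) lower. In CIA+THz against CIA, Tcf12 rose and Epor, the erythropoietin receptor, fell by 1.10, and in CIA+THz against Ctrl Cbfa2t3 rose by 0.84 and Epor fell.

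Of 41 genes of the autophagy and mitophagy machinery around Bnip3l and Ulk1, none passed in CIA against Ctrl, where 4 had an unadjusted limma p under 0.05. The median was 0.07, and the largest value among genes with a mean of at least 1 was that of Map1lc3a, at 0.98 (limma adjusted p = 0.315). Atg101, a subunit of the Ulk1 complex, fell by 0.77 in CIA+THz against CIA, and Gabarapl2, which binds to the forming autophagosome, and Becn1 fell by 0.93 and 0.71 in CIA+THz against Ctrl. Of 12 glycolytic genes tested, Pfkm fell by 0.85 in CIA+THz against Ctrl and was the only one to pass in any comparison. Eno1 (0.53 in CIA against Ctrl) and Aldoa (-0.48 in CIA+THz against CIA) did not reach the fold limit, though all 12 were lower in the latter comparison.

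**Figure D5:**
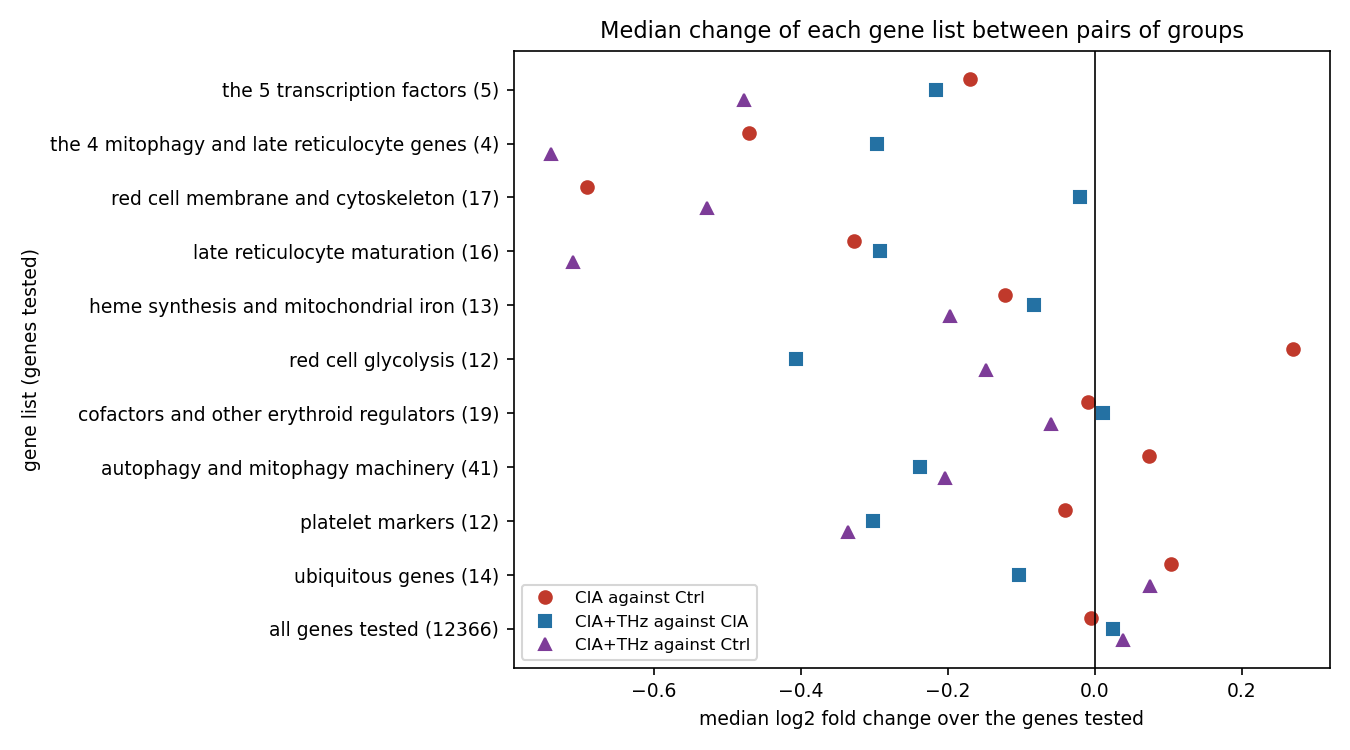
Median log2 fold change of each gene list in the 3 comparisons between pairs of groups, with the number of genes tested in brackets. The membrane list has its lowest median in CIA against Ctrl (-0.69), the late reticulocyte list in CIA+THz against Ctrl (-0.71), and the median of all genes tested is near 0.

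Markers of other cells that use some of the same factors were measured alongside. The 12 platelet markers summed to between 5084 and 6360 rescaled FPKM in Ctrl, 4733 and 6049 in CIA, and 4038 and 4851 in CIA+THz. None of them passed in any comparison, and their median in CIA+THz against CIA was -0.30, with Gp9 at -0.53. Gata1 and Nfe2 lay at -0.22 and -0.38 there. In that comparison the median was -0.29 for the late reticulocyte genes, -0.41 for the glycolytic genes and -0.02 for the red cell membrane genes. A value near -0.30 was thus not particular to platelet markers. Gp6 (-0.65 in CIA against Ctrl) and Tubb1 (-0.53 in CIA+THz against Ctrl) also stayed under the fold limit. The part of platelet RNA in the Gata1 and Nfe2 values was not tested. The 6 basophil and mast cell markers summed to between 424 and 786 over all libraries. Of these, Cpa3 and Fcer1a rose in CIA+THz against CIA by 0.92 and 0.77, Cpa3 fell in CIA against Ctrl by 0.84, and Mcpt8 rose in CIA against Ctrl by 0.83. The 5 eosinophil markers summed to at most 20.2, and none of the 4 tested passed, with Ccr3, Il5ra and Siglecf at absolute values of 0.44 or less.

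Leukocyte markers also differed between the groups. In CIA against Ctrl, 3 of 12 neutrophil markers rose, the granule genes Camp (4.86), Ltf (4.08) and Ngp (3.02), and Mmp8 fell by 1.35. Of the 12, 6 had a higher and 6 a lower fitted value there, with a median of -0.03. In CIA+THz against CIA all 12 had a lower fitted value and 4 fell, Camp by 2.04, Ltf by 1.93, Ngp by 1.86 and Retnlg by 0.83. In CIA against Ctrl 5 of 10 monocyte markers rose, with Fn1 and Cx3cr1 among the largest changes over all comparisons. Of the T cell markers 2 of 10 fell, Cd28 and Il7r, while Cd5 and Cd28 rose by 0.79 and 0.68 in CIA+THz against CIA, where all 10 had a higher fitted value. For B cells 1 of 8 rose in CIA against Ctrl, Blk, and Fcer2a and Pax5 had the other large changes, both in CIA+THz against Ctrl. For NK cells 3 of the 5 tested fell in CIA against Ctrl, Klre1, Gzma and Ncr1. None of 14 genes used in every cell passed in any comparison, with Psmb2, Ipo8 and Gusb highest at up to 0.63. The part of these shifts in the share of red cell RNA was not tested.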

How the data were processed

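Blood RNA of 9 mice was sequenced in 2×150 bp paired-end mode, and the authors deposited 1 table of FPKM values per gene symbol and library. The submitters' processing notes name bcl2fastq 2.0, HISAT2, StringTie, DESeq2 and the build mm10, with no role given. FPKM hold no counts, so no count test was run and absolute depth is unknown; relative depth was read from values under 0.3 FPKM. The libraries are labelled as separate mice by number only, and p-values measure the spread between these samples.

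The deposited FPKM of a library were rescaled with a median-of-ratios factor, estimated on the 10312 genes detected in every library. The 12366 of 20926 genes averaging 0.1 rescaled FPKM or more were tested as log2(rescaled FPKM + 0.1) in limma 3.58.1 (R 4.3.3, eBayes with trend), each pair on its own 6 libraries. Fold changes are on that scale and understate the change of low genes. Replicate numbers pair no animals. The model was tested on simulated data. The 9 genes and all lists were chosen with earlier results of these data known. From each list the 3 genes with the largest change among those with a mean of at least 1 were named, with Alas2 and Slc4a1, and genes such as Lyl1, Tcf12, Becn1, Uros, Mmp8 and Retnlg outside or beside that rule were named after their values were seen. Alternatives were other scalings, pseudocounts of 1 and 0.01, other minimum levels, no trend, all 3 groups in a fit, a replicate block, adjusted p and leaving out each library. The platelet markers as reference within a library were chosen after seeing the data. Hemoglobin genes were not analysed here. Some genes that the naming rule selects are not reported here. Figures were drawn with matplotlib 3.10.9.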

Additional observations from a re-analysis of the deposited data

How the results depend on the processing

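Klf1 against Ctrl, in CIA and in CIA+THz, and Trim58 in CIA+THz against Ctrl passed the criterion under all 15 refits of each, with log2 fold changes from -1.62 to -0.84, from -1.49 to -0.76 and from -1.35 to -0.93. Trim58 in CIA against Ctrl passed in 12 of 15, Bnip3l in CIA+THz against Ctrl in 7 of 15, and no gene of the 9 in CIA+THz against CIA in any. With Benjamini-Hochberg adjusted p under 0.05, the count of the 9 genes was 0 in each comparison, and that of all genes was 19 in CIA against Ctrl, 0 for CIA+THz against CIA, 13 for CIA+THz against Ctrl and 313 across the 3 groups. On FPKM as deposited, 1199 genes passed in CIA+THz against CIA (1133 higher, 94.5% against 64.7%) and 1720 in CIA+THz against Ctrl (1600 higher, 93.0% against 58.9%), because the median of all genes moved to 0.29 and 0.33. In that setting Gata1 (0.060), Lmo2 (0.18) and Bnip3l (0.046) changed sign in CIA+THz against CIA, and Nfe2 (0.057) and Ulk1 (0.12) in CIA+THz against Ctrl. Scaling by the sum without the top 20 genes gave 932 genes in CIA+THz against CIA (843 higher, 90.5%) and 0.11 for Lmo2. A pseudocount of 1 left 1 of the 9 genes in CIA against Ctrl and 283 genes in CIA+THz against CIA. Bpgm in CIA+THz against Ctrl (-0.76) passed with a minimum mean of 1, with no trend and with all 3 groups in the fit.

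Leaving out 1 library at a time gave 1 to 2 of the 9 genes in CIA against Ctrl, 0 for CIA+THz against CIA, 2 to 5 for CIA+THz against Ctrl and 2 to 7 across the 3 groups, with 7 without Ctrl 3 and 6 without CIA 1. Genes overall ranged from 971 to 1266, 475 to 747, 726 to 1500 (without Ctrl 3) and 2072 to 2798. Signs turned for Lmo2 (0.040 and 0.074 in CIA+THz against CIA without CIA 1 and CIA+THz 1), Ulk1 (-0.026) and Gata1 (0.052) in CIA against Ctrl without CIA 2 and CIA 3, and Klf1 (-0.046) in CIA+THz against CIA without CIA+THz 2. The ranges of Lmo2, Ulk1, Gata1 and Klf1 in these refits were -0.23 to 0.07, -0.03 to 0.30, -0.34 to 0.05 and -0.05 to 0.29. The cause of these changes was not tested.

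Replicate numbers are shared between groups, but same-numbered libraries did not deviate together (r from -0.05 to 0.03 over 9 pairs). With the replicate block, 1073, 506 and 967 genes passed in the 3 comparisons in the order above, Bnip3l in CIA+THz against Ctrl did not pass, and 2, 0 and 2 of the 9 genes did. Depth limits Klf1 and Trim58 most. Comparing 3 libraries with 3 gives no exact 2-sided permutation p under 0.1.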
